A study of Mus musculus with 15 samples.

Results

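Heat shock proteins and DnaJ proteins are the chaperones that fold, refold and sort other proteins, and their liver transcripts were followed here in mice on 3 diets. Members were all probe sets whose platform annotation gave a lone gene symbol beginning with Hsp or Dnaj, apart from Hspg2, which encodes a matrix proteoglycan, together with Cirbp, a cold-inducible RNA-binding protein. They numbered 175 probe sets of 73 genes among the 45101 probe sets of the array, and 129 probe sets of 60 genes passed the filter on low values, among 20342 probe sets tested. By the place where the protein works, the tested members were 60 probe sets of 28 cytosolic genes, 38 of 15 genes of the endoplasmic reticulum (ER), 16 of 9 mitochondrial genes, 14 of 7 genes of other sites and 1 of Cirbp. No probe set carried the symbol Hsp90ab1, Dnajc19 or Rbm3 alone, so these genes were not analysed here. The 13 genes with no tested probe set were Dnajb3, Dnajb7, Dnajc27, Dnajc5b, Dnajc5g, Dnajc6, Hspa12a, Hspa12b, Hspa1l, Hspb2, Hspb3, Hspb7 and Hspb9, whose signals did not exceed 20.5 on any array.

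The mice were male C57BL/6J animals that started their diets at 8 weeks of age and ate them for 12 weeks. The groups were 5 mice given β-cryptoxanthin in the CL diet (CL+CX), 5 on the CL diet alone (CL) and 5 on CRF-1 standard chow (NC), where the CL diet is chow with cocoa butter, cholesterol and sodium cholate and β-cryptoxanthin is a carotenoid. The CL+CX and CL mice thus shared the fat, the cholesterol and the bile salt, and the comparison of CL with NC does not separate these ingredients. The labels give the carotenoid as 0.005% in the sample titles and as 0.003% in the treatment text. Each liver was hybridised to its own Affymetrix Mouse Genome 430 2.0 array, and values are signals scaled to a common 75th percentile of 54.05, with differences on the log2 scale.

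Chaperones of the Hsp70 family bind exposed stretches of unfolded proteins in cycles of ATP hydrolysis that DnaJ proteins start and exchange factors end, while small heat shock proteins hold unfolded proteins without ATP. In the cytosol, the inducible members are switched on by the transcription factor HSF1, which binds heat shock elements in their promoters when unfolded proteins accumulate. The ER and the mitochondria have chaperone sets of their own, and in the ER the unfolded protein response raises them through ER stress elements, a pathway long studied in fatty liver.

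The arrays differed in ways that bear on these genes. The β-actin 3′ minus 5′ log2 difference, a measure of RNA integrity and labelling, was 0.949 to 1.17 on CL+CX arrays, 0.699 to 0.945 on CL arrays and 0.842 to 1.05 on NC arrays, so that every CL+CX array lay above every CL array. CL replicate 2 correlated with its group at a mean r of 0.941, against 0.957 to 0.962 for the other CL arrays. Hepatocyte markers were present in every liver, with a summed signal over 8 genes of 52000 to 62000 in CL+CX, 47100 to 73900 in CL and 67000 to 84400 in NC livers, and 2 of the 8 were lower in CL than in NC. Macrophage markers summed to 1930 to 4450 in CL+CX, 5580 to 7040 in CL and 960 to 2230 in NC livers, and 8 of 8 were higher in CL than in NC while 5 of 8 were lower in CL+CX than in CL.

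Promoters with a match, for some of the chaperones described below, are shown first. The motifs for HSF1 and for the ER stress response are the known sequence features of these families. RefSeq promoter windows of build GRCm38.p6, from 250 bases before to 50 bases after a gene's start, were found for 60 of the 73 member genes. Letters in capitals are the pair of heat shock element units, searched as GAANNTTC or TTCNNGAA, where the same letters are read on both strands. The distance before the gene's start follows each coordinate.
Hspa1b, chr17:34959315-34959362, minus strand, 104 to 97 bases before the start: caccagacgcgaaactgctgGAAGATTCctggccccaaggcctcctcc
Hspb1, chr5:135887782-135887849, plus strand, 117 to 90 bases before the start: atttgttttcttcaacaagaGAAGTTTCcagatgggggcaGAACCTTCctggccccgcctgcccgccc
Hsph1, chr5:149636342-149636389, minus strand, 33 to 26 bases before the start: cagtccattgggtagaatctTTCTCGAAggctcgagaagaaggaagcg
Dnaja1, chr4:40722324-40722371, plus strand, 124 to 117 bases before the start: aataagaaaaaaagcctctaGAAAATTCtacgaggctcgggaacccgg
Dnajb4, chr3:152193846-152193879, minus strand, 14 to 7 bases before the start: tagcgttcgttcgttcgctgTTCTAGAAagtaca
Hspd1, chr1:55088039-55088096, minus strand, 144 to 127 bases before the start: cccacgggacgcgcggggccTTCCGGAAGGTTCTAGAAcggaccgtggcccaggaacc
The Hspd1 stretch holds 3 overlapping matches, and it is at the same time the promoter of Hspe1, whose start lies 215 bases away on the other strand. Hspa1a carries the same printed stretch as Hspa1b, and the promoter windows of these neighbouring genes differ at 4 of 300 bases. The motif was present in 16 of the 60 member genes (26.7%), against 17% of all gene symbols in the table. It was found in 11 of 32 cytosolic genes, 1 of 12 ER genes, 2 of 6 mitochondrial genes and 2 of 9 genes of other sites. Hspa1a and Hspa1b, like Hspd1 and Hspe1, count as separate genes there although their matches lie in the same letters. The windows printed are a selection of those with a match, and Dnaja4, Hspb6 and Hspb8 have a match that is not printed. Dnajb1, Hsp90aa1, Hspa8 and Hspa9 are not among the 16 genes, for lack of a match or of a window.

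The ER stress element, searched on both strands as CCAAT and CCACG with 9 bases of any kind between them, was present in 3 of the 60 genes, all 3 of them ER chaperones, against 0.137% of all gene symbols. They are printed with the fixed letters of the motif in capitals.
Hspa5, chr2:34772005-34772063, plus strand, 65 to 47 bases before the start: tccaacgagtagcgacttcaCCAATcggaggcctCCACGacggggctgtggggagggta
Dnajc3, chr14:118937807-118937865, plus strand, 105 to 87 bases before the start: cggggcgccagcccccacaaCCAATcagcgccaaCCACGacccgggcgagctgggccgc
Hsp90b1, chr10:86705513-86705676, minus strand, 2 matches between 212 and 89 bases before the start: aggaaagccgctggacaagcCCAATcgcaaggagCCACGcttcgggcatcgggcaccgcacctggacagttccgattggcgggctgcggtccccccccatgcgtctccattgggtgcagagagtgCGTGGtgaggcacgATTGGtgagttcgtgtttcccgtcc
A match describes the letters only, and no match says only that these letters are not in the window.

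With the scaling and filter of the main fit, calls were no more frequent among chaperone probe sets than among all probe sets in any comparison. In CL against NC livers, 1 member probe set was higher and 6 were lower by limma with Benjamini-Hochberg adjustment over all probe sets tested, which is 5.43% of the members against 12.2% of all probe sets (5.9% higher, 6.35% lower), and p-values here measure only the spread between these 5 mice a group. In CL+CX against CL livers, 1 was higher and 3 were lower, which is 3.1% against 3.13% of all probe sets (1.58% higher, 1.55% lower). In CL+CX against NC livers, 2 were higher and 7 were lower, which is 6.98% against 9.79% of all probe sets (4.81% higher, 4.98% lower). At the level of genes, taking for each gene the tested probe set of highest mean signal, the calls were Hspd1, Dnajc21 and Hspb6 lower in CL than in NC (14.0% of all genes called, 7.2% higher and 6.76% lower), Hspa14 lower in CL+CX than in CL (3.26% of all genes, 1.48% higher and 1.78% lower), and Dnajb4 lower in CL+CX than in NC (9.96% of all genes, 5.11% higher and 4.85% lower). The comparisons share groups, so their counts are not independent of each other. Many calls depended on the processing. Of the 7 calls in CL against NC, 6 were lost with the signals as deposited and 5 with no filter on low values, and of the 9 in CL+CX against NC, 5 and 6 were lost under these choices.

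The inducible cytosolic Hsp70 genes had lower means in CL+CX than in CL livers but varied widely between mice of the same diet, and no comparison passed the test. Hspa1b, the stress-inducible Hsp70, gave signals of 144, 204, 240, 159 and 868 in CL+CX livers, 2380, 951, 323, 994 and 342 in CL livers, and 2000, 1960, 394, 439 and 672 in NC livers. In CL+CX, 4 of the 5 livers lay below all CL and NC livers, and the fifth lay among them. The mean log2 difference was -1.60 for CL+CX minus CL (95% interval -2.95 to -0.25, adjusted p = 0.173), -1.77 for CL+CX minus NC (-3.12 to -0.43, adjusted p = 0.0869) and -0.17 for CL minus NC (-1.52 to 1.17, adjusted p = 0.89), none past the threshold of 0.05. The difference of CL+CX from NC passed without CL+CX replicate 5 (-2.22, adjusted p = 0.0398) and with the stricter filter (adjusted p = 0.0457).

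Its neighbour Hspa1a, which encodes a nearly identical protein, followed the same mice with signals of 12.3, 11.6, 5.65, 7.28 and 52.0 in CL+CX livers, 139, 40.4, 17.3, 57.9 and 22.4 in CL livers, and 53.9, 65.1, 9.26, 29.9 and 21.4 in NC livers. Of these, 3 CL+CX arrays and 1 NC array lay below their array's median signal, where the measurement is imprecise. Within diets the Hspa1a probe set and the other 2 Hspa1b probe sets correlated with the first Hspa1b probe set at r = 0.892, 0.988 and 0.988 over the 15 mice. Probe sets of genes this alike may measure both, so they are not counted as separate support for each other.

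Hspb1, the small heat shock protein Hsp25, and Dnajb1, the inducible DnaJ partner of Hsp70, had lower means in CL+CX than in CL livers without passing the test. Hspb1 gave 201, 283, 331, 267 and 456 in CL+CX livers, 970, 938, 467, 648 and 295 in CL livers, and 553, 462, 368, 260 and 398 in NC livers, a log2 difference of -1.03 for CL+CX minus CL (95% interval -1.69 to -0.37, adjusted p = 0.0817). Dnajb1 gave 110, 152, 139, 180 and 206 in CL+CX livers, 395, 452, 183, 234 and 209 in CL livers, and 293, 280, 177, 163 and 188 in NC livers, with a difference of -0.84 (-1.40 to -0.28, adjusted p = 0.0924). For both genes the CL+CX and CL livers overlapped. With the stricter filter, which tests fewer probe sets, the adjusted p was 0.0388 for Hspb1 and 0.0469 for Dnajb1, and without CL replicate 5 it was 0.0188 for Hspb1 at a difference of -1.29.

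**Figure D1:**
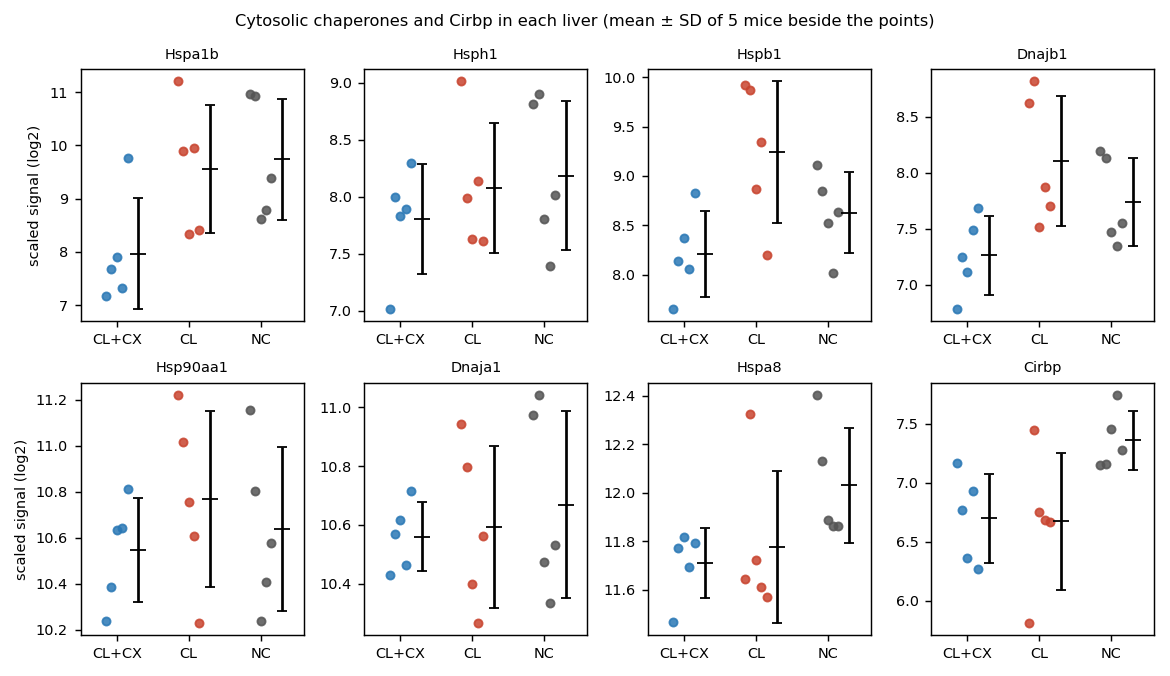
Scaled signal on the log2 scale of 7 cytosolic chaperones and Cirbp in the livers of CL+CX, CL and NC mice, where each point is a mouse and the bar beside the points is the mean ± SD of 5 mice. Hspa1b spans 323 to 2380 within the CL group and 394 to 2000 within the NC group, and 4 of the 5 CL+CX livers lie below both ranges.

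The spread between mice was wide for some genes of several compartments. Taking each gene's brightest probe set, Hspa1a and Hspa1b had the highest SDs of the 60 genes. The pooled SD within diets was 1.13 for Hspa1b on the log2 scale, more than that of 99.4% of tested probe sets, and 1.19 for Hspa1a, against a median of 0.282 and a 90th percentile of 0.543 over all tested probe sets. Hsph1, the Hsp110 exchange factor for Hsp70, had an SD of 0.574. The median SD was 0.333 over cytosolic probe sets, 0.306 over mitochondrial ones and 0.23 over those of the ER. These medians are not matched for signal. Against the 500 probe sets nearest in signal, Hspb1 and Hsph1 each had a higher SD than 97.4%, and Dnajb1 than 96.2%. Genes of other compartments stood as high or nearly so, with 97.4% for Dnajc17 of the other sites and 96% for the mitochondrial Dnajc15. Of the ER genes, Hspa5 stood at 95% and Dnajb11 at 93.2%. Others did not, such as Hspa8 at 68.2% and Hspd1 at 3.2%. The plot of spread against level shows them.

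**Figure D2:**
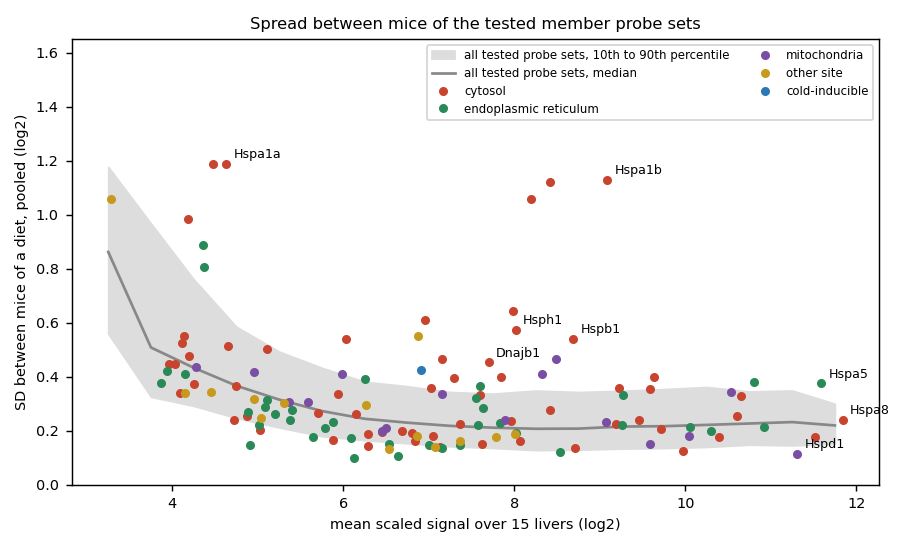
SD between mice of a diet, pooled over the 3 diets, against the mean scaled signal over 15 livers, both on the log2 scale, for the 129 tested member probe sets coloured by compartment, with the median and the 10th to 90th percentiles of all tested probe sets of like signal in grey. Hspa1a and Hspa1b lie far above the grey band at SDs of 1.19 and 1.13.

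Several chaperones deviated together with Hspa1b from mouse to mouse. Each liver's difference from its own group's mean was set against that of Hspa1b over the 15 mice, a relation chosen after the Hspa1b values were seen, with p from 100000 permutations of mice within diets adjusted over 18 relations. Hsph1 followed Hspa1b at Pearson r = 0.885 and Spearman rho = 0.843 (permutation p = 6e-05 and 0.00063, adjusted p = 0.00108 and 0.00567), with r = 0.857 without the 2 mice farthest from the median. Hspb1 followed it at r = 0.85 and rho = 0.896 (permutation p = 0.00039 and 0.00017, adjusted 0.00351 and 0.00306), with r = 0.788 without those mice. Hsp90aa1, the inducible cytosolic Hsp90, followed it at r = 0.807 and rho = 0.779 (permutation p = 0.00156 and 0.0041, adjusted 0.00936 and 0.0184), with r = 0.756 without them.

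Dnajb1 did so at r = 0.806 and rho = 0.836 (permutation p = 0.00268 and 0.00279, adjusted 0.0121 and 0.0167), with r = 0.76 without those mice, and Dnaja1, a constitutive DnaJ partner of Hsp70, at r = 0.77 and rho = 0.693 (permutation p = 0.00439 and 0.0165, adjusted 0.0158 and 0.0545), with r = 0.73. These cytosolic genes had a positive r in each diet taken alone, from 0.592 for Dnaja1 in CL to 0.982 for Dnajb1 in NC, over 5 mice each. Among the ER chaperones, Hsp90b1 gave r = 0.756 and rho = 0.636 (permutation p = 0.0055 and 0.0392, adjusted 0.0165 and 0.0882), falling to r = 0.586 without the 2 mice, and Hspa5 gave r = 0.662 and rho = 0.654 (permutation p = 0.0155 and 0.0182, adjusted 0.04 and 0.0545), with r = 0.62. The constitutive Hspa8 did not pass at r = 0.455 (rho = 0.561, permutation p = 0.134 and 0.0446, adjusted 0.22 and 0.0892). Nor did the cytosolic Dnajb4 at r = 0.334 and rho = 0.325 (permutation p = 0.279 and 0.297, adjusted 0.335 and 0.381), Hspb8 at r = 0.426 and rho = 0.346 (permutation p = 0.155 and 0.256, adjusted 0.232 and 0.354), or the ER protein Dnajb9 at r = 0.479 and rho = 0.525 (permutation p = 0.109 and 0.0854, adjusted 0.196 and 0.14). Without the 2 mice r was 0.652 for Hspa8, 0.099 for Dnajb4, 0.406 for Hspb8 and 0.438 for Dnajb9.

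The mitochondrial chaperones did not pass, with r = 0.542 and rho = 0.511 for Hspd1 (permutation p = 0.0635 and 0.0793, adjusted 0.127 and 0.14), r = 0.271 and rho = 0.189 for Hspa9 (permutation p = 0.387 and 0.552, adjusted 0.436 and 0.621), and r = -0.101 and rho = -0.0786 for Hspe1 (permutation p = 0.786 and 0.808, adjusted p equal to these). Without the 2 farthest mice r was 0.662 for Hspd1, 0.235 for Hspa9 and 0.315 for Hspe1. That of Hspd1 was then above the 0.62 of Hspa5, so the compartments were not sharply divided. In single diets Hspd1 gave r = -0.174 in CL+CX, 0.441 in CL and 0.998 in NC. Cirbp gave r = -0.603 and rho = -0.621, which did not pass after adjustment (permutation p = 0.0283 and 0.0227, adjusted 0.0636 and 0.0583). Without the 2 farthest mice the r of Cirbp was -0.309, so that its size depended on them. Its sign was negative in each diet taken alone, with r = -0.816 in CL+CX, -0.449 in CL and -0.825 in NC. The immediate early gene Fos gave r = -0.134 and rho = -0.114 (permutation p = 0.669 and 0.684, adjusted 0.709 and 0.725). The β-actin 3′ minus 5′ difference of the arrays gave r = -0.381 and rho = -0.339 (permutation p = 0.195 and 0.256, adjusted 0.271 and 0.354).

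Likeness to Hspa1b by this r was ranked over the 20338 tested probe sets other than those of Hspa1a and Hspa1b. The 5 most alike began with a second probe set of Hsph1 at 0.941 and P4ha1, a collagen prolyl hydroxylase subunit, at 0.901. A second probe set of Hsp90aa1 followed at 0.893. Next were Stip1, the adaptor that joins Hsp70 to Hsp90, at 0.888, and the Hsph1 probe set above. Hspb1 ranked 11th, and Hsp90aa1, Dnajb1, Dnaja1 and Hsp90b1 ranked 20th, 21st, 33rd and 39th. All these values come from the same 15 arrays, so they share any difference in RNA handling between livers, which was not tested.

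**Figure D3:**
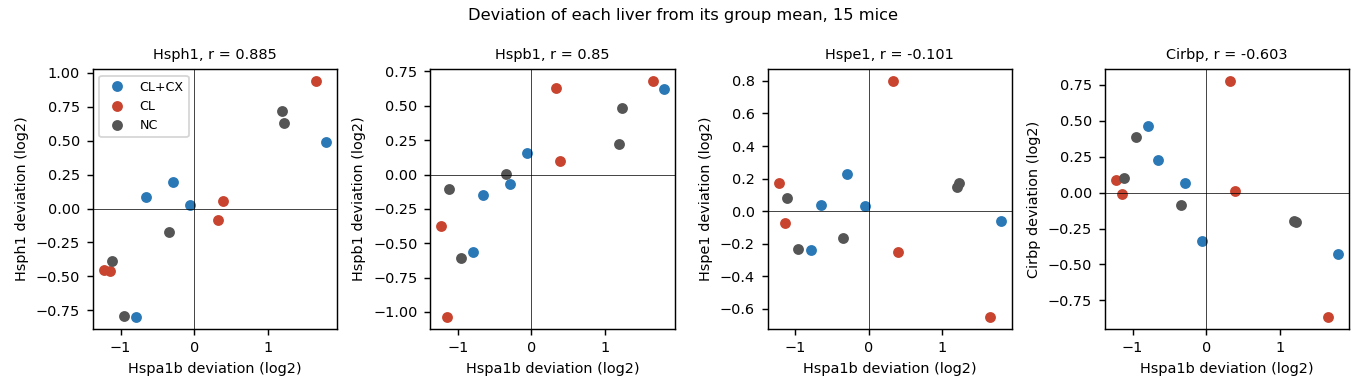
Deviation of each liver from its group mean on the log2 scale for Hsph1, Hspb1, Hspe1 and Cirbp, each against that of Hspa1b, for 5 CL+CX, 5 CL and 5 NC mice. Hsph1 and Hspb1 rise with Hspa1b in all 3 diets (r = 0.885 and 0.85), Hspe1 does not (r = -0.101), and the negative r of Cirbp (-0.603) did not pass and is -0.309 without the 2 farthest mice.

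Hspa8, Hsp90aa1, Hsph1, Hspb8 and Dnaja1 did not pass the test in any comparison by their brightest probe sets. Hspa8, the constitutive Hsp70 and a main clathrin-uncoating and folding factor, gave 2830, 3500, 3610, 3310 and 3550 in CL+CX livers, 3200, 5130, 3380, 3130 and 3040 in CL livers, and 5420, 4490, 3790, 3730 and 3730 in NC livers, with differences of -0.07 for CL+CX minus CL (95% interval -0.40 to 0.27, adjusted p = 0.862), -0.32 for CL+CX minus NC (adjusted p = 0.202) and -0.26 for CL minus NC (adjusted p = 0.314). Every CL+CX liver lay below every NC liver for this probe set, while CL replicate 2 stood high in its group, and without it the difference of CL from NC was -0.39 with an adjusted p of 0.041. A dim Hspa8 probe set, 1431182_at, fell by 1.17 in CL+CX against NC livers (adjusted p = 0.0271), and its call was lost without NC replicate 3 or 5 or CL+CX replicate 1, 4 or 5. The 2 brighter remaining Hspa8 probe sets differed by -0.23 and 0.10 there.

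Hsp90aa1 gave differences of -0.22 for CL+CX minus CL (adjusted p = 0.588) and 0.13 for CL minus NC (adjusted p = 0.722), and Hsph1 gave -0.27 (adjusted p = 0.702) and -0.11 (adjusted p = 0.867). Hspb8, a small heat shock protein of chaperone-assisted autophagy, gave -0.07 (95% interval -0.53 to 0.38) and 0.01 (-0.44 to 0.47). Dnaja1 gave -0.03 (-0.38 to 0.31) and -0.08 (-0.42 to 0.27) on its brightest probe set. A second Dnaja1 probe set, 1459835_s_at, was 0.51 higher in CL+CX than in NC livers (adjusted p = 0.0419), with signals of 658, 708, 733, 752 and 656 in CL+CX livers, 778, 627, 602, 439 and 508 in CL livers, and 556, 472, 430, 594 and 433 in NC livers. The CL+CX and NC livers did not overlap on it, yet the brightest Dnaja1 probe set differed by -0.11 in the same comparison, and the call was lost in 10 of 15 fits that left out a mouse, without NC replicate 1, 2, 3 or 5, CL replicate 3 or any CL+CX replicate.

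Dnajb4, a DnaJ partner of cytosolic Hsp70, was lower in CL+CX than in NC livers on both of its called probe sets. The brighter gave 203, 248, 246, 298 and 337 in CL+CX livers, 436, 509, 491, 284 and 322 in CL livers, and 400, 419, 396, 363 and 366 in NC livers, a difference of -0.57 ± 0.172 (SE) for CL+CX minus NC (adjusted p = 0.0499) with no overlap. For CL+CX minus CL it was -0.60 (adjusted p = 0.0699), and the other probe set gave -0.74 against NC (adjusted p = 0.0391) and -0.73 against CL (adjusted p = 0.0753). The brighter call was kept in 4 and the other in 7 of 15 fits that left out a mouse, and both were lost without NC replicate 1, 2, 3 or 5 or CL+CX replicate 1, 2, 3 or 4, the brighter also without NC replicate 4 or CL replicate 1 or 3. Without scaling the brighter gave -0.32 (adjusted p = 0.341).

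Hspa14, a ribosome-associated Hsp70, was the gene that fell in CL+CX against CL livers. Its signals were 69.2, 47.8, 49.3, 49.5 and 62.7 in CL+CX livers, 83.0, 124, 104, 76.9 and 72.2 in CL livers, and 56.5, 80.3, 75, 74.8 and 76.3 in NC livers. Each CL+CX liver lay below each CL liver, with a difference of -0.71 ± 0.165 (SE, adjusted p = 0.0349), that is 1.64-fold lower, and the difference of CL+CX from NC was -0.39 (adjusted p = 0.145). The call was lost without CL replicate 1, 2 or 3 or CL+CX replicate 2, 3 or 4, where the adjusted p reached 0.0971. With the β-actin difference as a covariate the difference was -0.33 with an adjusted p of 0.93. Every CL+CX array lay above every CL array in that covariate, so the fit cannot fully separate it from the diet. The other tested Hspa14 probe set, 1417095_a_at, which is dimmer, gave 0.14 for CL+CX minus CL (adjusted p = 0.814).

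Dnaja4, another cytosolic DnaJ protein, fell by 0.80 in CL+CX against CL livers on probe set 1418591_at (adjusted p = 0.046). Its signals were 11.1, 8.64, 9.11, 17.2 and 17.8 in CL+CX livers, 20, 23.3, 26.2, 20 and 17.8 in CL livers, and 17.4, 20.4, 19.8, 15.6 and 23.8 in NC livers. The brighter Dnaja4 probe set differed by 0.03. On 3 CL+CX arrays the called probe set lay below the array median, and its call was lost under all 9 other processing choices that gave a value and without NC replicate 1, 2, 3 or 5, CL replicate 1, 2, 3 or 4, or CL+CX replicate 1, 2 or 3.

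Hspb6, the small heat shock protein Hsp20, was lower in CL than in NC livers. It gave 101, 82.3, 109, 94.1 and 81.8 in CL+CX livers, 64.8, 78.8, 76.7, 64 and 75 in CL livers, and 105, 76.9, 123, 98.8 and 106 in NC livers, a difference of -0.50 ± 0.134 (SE) for CL minus NC (adjusted p = 0.0253). Only NC replicate 2 lay within the CL range, and the CL+CX livers lay above all CL livers at a difference of 0.38 that did not pass (adjusted p = 0.13). Dnajc21, a DnaJ protein of ribosome assembly, gave 190, 185, 183, 201 and 167 in CL+CX livers, 193, 179, 154, 175 and 189 in CL livers, and 235, 259, 208, 196 and 272 in NC livers. Each CL liver lay below each NC liver, with a difference of -0.39 ± 0.114 (SE, adjusted p = 0.037). The Hspb6 call was lost without NC replicate 1, 3 or 5 or CL replicate 1 or 4, and the Dnajc21 call without NC replicate 1, 2 or 5 or CL replicate 3 or 4. With the signals as deposited Hspb6 differed by -0.18 (adjusted p = 0.521) and Dnajc21 by -0.07 (adjusted p = 0.824). The methods' own test takes a Welch ANOVA over the 3 groups and then Tukey's test for the pair. Its p, the larger of the Benjamini-Hochberg adjusted ANOVA p and the unadjusted Tukey p, was 0.0558 for Hspb6 and 0.106 for Dnajc21.

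No ER chaperone gene passed the test in any comparison by its brightest probe set. Hspa5, the ER Hsp70 known as BiP, gave 1720, 2190, 2370, 2600 and 3760 in CL+CX livers, 3330, 5370, 2850, 2770 and 2630 in CL livers, and 4490, 4510, 3620, 3030 and 3090 in NC livers. The groups overlapped, with differences of -0.42 for CL+CX minus CL (95% interval -0.89 to 0.06, adjusted p = 0.324), -0.59 for CL+CX minus NC (adjusted p = 0.101) and -0.18 for CL minus NC (-0.65 to 0.30, adjusted p = 0.658). The difference of CL+CX from NC passed without CL+CX replicate 5 (-0.75, adjusted p = 0.0483) and without CL replicate 2 (-0.59, adjusted p = 0.045).

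Hsp90b1, the ER Hsp90 known as GRP94, was read by 2 probe sets that did not give the same answer. Probe set 1438040_a_at gave 827, 904, 959, 928 and 1210 in CL+CX livers, 1200, 1520, 1310, 1070 and 1020 in CL livers, and 1640, 2050, 1580, 1750 and 1580 in NC livers, with all NC livers above all others. It fell by 0.84 in CL+CX against NC livers (SE 0.136, adjusted p = 0.00211), a 1.79-fold difference, and by 0.49 in CL against NC livers (adjusted p = 0.0276). The brighter probe set 1415889_a_at gave 1720, 1680, 1820, 1750 and 2320 in CL+CX livers, 2250, 2370, 1660, 1660 and 1520 in CL livers, and 2320, 2260, 2140, 2010 and 1840 in NC livers, with overlapping groups and differences of -0.19 (adjusted p = 0.418) and -0.18 (adjusted p = 0.457).

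The difference of CL+CX from NC on 1438040_a_at was called in all 15 fits without a mouse and under all 10 other processing choices, with adjusted p of 0.039 or less. That of CL from NC was lost without NC replicate 2 or CL replicate 1, 4 or 5, with the signals as deposited (-0.18, adjusted p = 0.533) and after quantile normalization (-0.32, adjusted p = 0.0897). Dnajb11, the ER DnaJ protein ERdj3, gave 117, 130, 146, 166 and 199 in CL+CX livers, 265, 306, 176, 178 and 130 in CL livers, and 275, 253, 292, 193 and 210 in NC livers, with a difference of -0.70 for CL+CX minus NC (adjusted p = 0.0551) that passed under 8 alternatives, among them without CL replicate 2 or 5 or CL+CX replicate 5 (adjusted p = 0.028, 0.036 and 0.0468).

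Dnajb9, the ER DnaJ protein ERdj4, gave -0.36 for CL+CX minus CL (95% interval -0.78 to 0.07) and 0.04 for CL minus NC (-0.39 to 0.46). Dnajc3, the inhibitor of eIF2α kinases known as p58IPK, gave 0.04 (-0.27 to 0.34) and -0.32 (-0.62 to -0.01, adjusted p = 0.169), and its difference of CL from NC had an adjusted p of 0.0394 without CL replicate 2. Over the 38 ER probe sets the median difference was -0.06 for CL minus NC, -0.02 for CL+CX minus CL and -0.16 for CL+CX minus NC, against -0.09, 0.04 and -0.03 over all tested probe sets.

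On single ER probe sets, Dnajb14, a membrane-bound DnaJ protein, had a higher signal on 1429468_at in CL+CX than in CL livers (difference 0.71, adjusted p = 0.0361), with signals of 33.4, 34.0, 43.3, 32.4 and 46.7 in CL+CX livers, 17.9, 22.5, 23.1, 25.5 and 26.6 in CL livers, and 21.3, 28.2, 37.1, 27.6 and 36.5 in NC livers. The CL+CX and CL livers did not overlap, but the brighter Dnajb14 probe set differed by 0.13, and the call was lost without CL replicate 1, 2, 3 or 4 or CL+CX replicate 2, 3, 4 or 5. Dnajc14, another membrane-bound DnaJ protein, was higher on 1437547_s_at in CL+CX than in NC livers (0.53, adjusted p = 0.0163, called in 15 of 15 fits without a mouse, but not with the β-actin covariate at 0.107) and in CL than in NC livers (0.41, adjusted p = 0.0434, called in 7 of 15, lost without NC replicate 1, 2 or 3, CL replicate 1, 2 or 5, or CL+CX replicate 4 or 5). Its brighter probe set gave 0.16 and 0.06 in these comparisons.

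Of the 16 mitochondrial probe sets, 3 were lower in CL than in NC livers, those of Hspd1 and 2 of Hspa9 (18.8%, against 6.35% of all probe sets lower), and 3 were lower in CL+CX than in NC livers, 2 of Hspa9 and 1 of Dnaja3 (18.8%, against 4.98%). Probe sets of a gene are not independent. By the brightest probe set, 1 of the 9 mitochondrial genes was lower in CL than in NC livers (11.1%, against 6.76% of all genes). In CL+CX against NC livers 0 of the 9 were called lower, against 4.85% of all genes. Hspd1, the mitochondrial Hsp60 that encloses proteins in a folding chamber, gave 2260, 2490, 2540, 2590 and 2370 in CL+CX livers, 2350, 2230, 2280, 2040 and 1990 in CL livers, and 3390, 3400, 2730, 2820 and 2960 in NC livers. Every NC liver lay above all livers of the other groups. The difference was -0.49 ± 0.101 (SE) for CL minus NC (adjusted p = 0.00613), 1.4-fold lower, and it was called in 15 of 15 fits without a mouse. It was not called with the signals as deposited (-0.17, adjusted p = 0.567) or after quantile normalization (-0.28, adjusted p = 0.155).

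For CL+CX minus CL, Hspd1 differed by 0.17 (95% interval -0.04 to 0.39, adjusted p = 0.377), and for CL+CX minus NC by -0.31 (-0.53 to -0.10, adjusted p = 0.0614), although no CL+CX liver overlapped the NC livers. The difference from NC passed under the methods' own test (0.0289, the larger of its ANOVA and Tukey p) and 5 other alternatives. Among these was the fit without CL replicate 2 (adjusted p = 0.0406). Hspe1, the Hsp10 lid of the same chamber, which shares the printed promoter, gave 1300, 1790, 1560, 1570 and 1470 in CL+CX livers, 897, 2450, 1590, 1180 and 1340 in CL livers, and 1710, 1690, 1610, 1290 and 1360 in NC livers. Its groups overlapped, with a difference of -0.11 for CL minus NC (-0.55 to 0.32, adjusted p = 0.766), and CL livers alone spanned the range of all other livers. Whether Hspd1 and Hspe1 differ in their response was not tested.

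Hspa9, the mitochondrial Hsp70 called mortalin, which pulls proteins through the import channel, was read by 4 probe sets. Probe set 1418503_at gave 709, 691, 650, 791 and 646 in CL+CX livers, 693, 682, 722, 618 and 609 in CL livers, and 1150, 862, 1130, 1060 and 859 in NC livers, with all NC livers above the rest. It was 1.51-fold lower in CL than in NC livers (-0.60 ± 0.115, SE, adjusted p = 0.00389) and lower by 1.44-fold in CL+CX than in NC livers (-0.53, adjusted p = 0.0107), with 0.07 between CL+CX and CL (adjusted p = 0.8). Both calls held in 15 of 15 fits without a mouse, and neither with the signals as deposited (-0.28 for each, adjusted p = 0.343 for CL and 0.337 for CL+CX against NC).

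The brightest Hspa9 probe set, 1418504_at, gave 935, 1090, 887, 968 and 869 in CL+CX livers, 1180, 1020, 1060, 874 and 768 in CL livers, and 1430, 1250, 1360, 1110 and 1180 in NC livers, with differences of -0.38 for CL minus NC (adjusted p = 0.0646) and -0.42 for CL+CX minus NC (adjusted p = 0.0506). These values sat just outside the threshold, and they passed under the methods' own test (adjusted p = 0.0485 for each), without CL replicate 1 (adjusted p = 0.0393 and 0.0426) and, against NC in CL+CX livers, also without NC replicate 4 or CL replicate 2 or 5. A dim probe set, 1431274_a_at, fell by 1.43 in CL+CX against NC livers (adjusted p = 0.003, called in all 15 fits without a mouse) and by 1.01 in CL+CX against CL livers (adjusted p = 0.0391, lost without NC replicate 5, CL replicate 1 or 3, or CL+CX replicate 2, 3, 4 or 5). Under the β-actin covariate, which cannot be fully separated from the diet there, the difference from CL was -0.36 with an adjusted p of 0.936. The fourth, 1447728_x_at, fell by 0.43 in CL against NC livers (adjusted p = 0.0499, called in 1 of 15 fits without a mouse, that without CL replicate 4), and its difference was -0.11 with the signals as deposited (adjusted p = 0.673).

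Dnaja3, the mitochondrial DnaJ partner of Hspa9 known as Tid1, also differed between its probe sets. Probe set 1420629_a_at gave 135, 110, 81.1, 94.9 and 84.3 in CL+CX livers, 179, 237, 145, 118 and 102 in CL livers, and 216, 205, 202, 199 and 170 in NC livers, with a fall of 1.00 in CL+CX against NC livers (SE 0.203, adjusted p = 0.00763, called in 15 of 15 fits without a mouse) and no overlap. Its adjusted p was 0.0652 with the β-actin covariate and 0.0622 with the signals as deposited. The brighter probe set gave -0.26 (adjusted p = 0.281), also with no overlap between CL+CX and NC livers. Without CL replicate 2 its difference of CL from NC was -0.37 with an adjusted p of 0.0205, against -0.22 and 0.38 with all mice. The other mitochondrial DnaJ genes, tested by their brightest probe sets, gave -0.34 for Dnajc11, -0.17 for Dnajc15, -0.18 for Dnajc28, -0.41 for Dnajc30 (adjusted p = 0.0982) and 0.08 for Dnajc4 in CL minus NC.

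**Figure D4:**
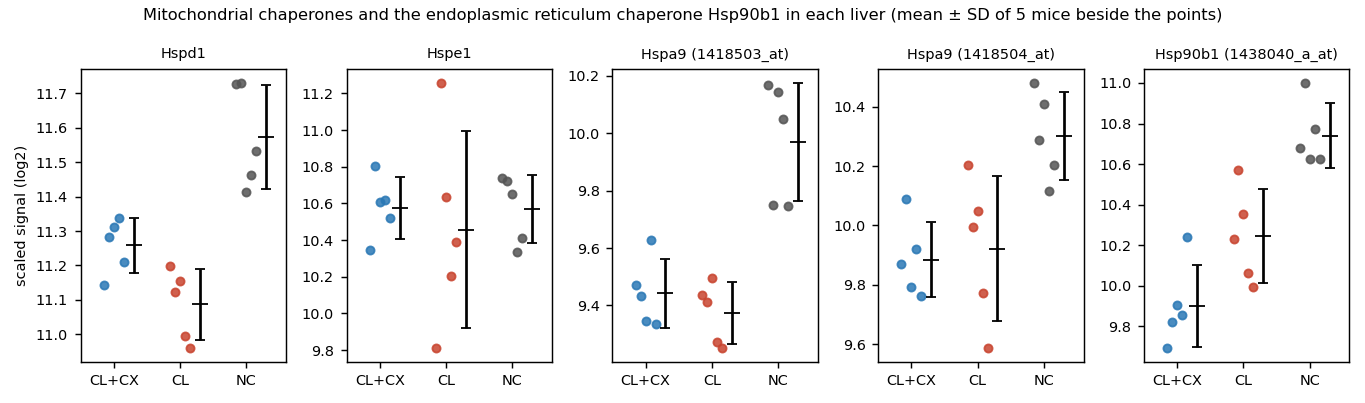
Scaled signal on the log2 scale of Hspd1, Hspe1, 2 Hspa9 probe sets and 1 Hsp90b1 probe set in the livers of CL+CX, CL and NC mice, where each point is a mouse and the bar beside the points is the mean ± SD of 5 mice. For Hspd1, Hspa9 1418503_at and Hsp90b1 1438040_a_at every NC liver lies above every other liver, while the Hspe1 groups overlap.

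Over the mitochondrial set, 14 of 16 probe sets were below 0 for CL minus NC with a median of -0.36, against 61.2% below 0 and a median of -0.09 over all tested probe sets, and 3 were called lower (18.8%, against 6.35%). With the signals as deposited, without scaling, the median of all tested probe sets moved to 0.23 and that of the mitochondrial set to -0.05, with 9 of 16 below 0, so that its size depended on the scaling. In both settings it lay 0.28 below the median of all, and 14 of the 16 lay below that median. Scaling shifts all differences of a comparison by the same amount. This distance is thus the same by construction, and the settings are not separate support for it. With quantile normalization the mitochondrial median was -0.27. Without CL replicate 2, 6 of the 16 were called lower (37.5%) and 15 were below 0, while the share of all tested probe sets called lower was 11.7% in that fit, against 6.35% with all mice. For CL+CX minus CL the mitochondrial median was 0.06, with 7 of 16 below 0.

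Partner genes of the mitochondrial chaperones were read in the same way. Of 14 genes of mitochondrial protein quality control, 14 were below 0 for CL minus NC with a median of -0.28, against 60.1% and -0.08 over all genes, and 2 were called lower (14.3%, against 6.76% of all genes). With the signals as deposited 6 of the 14 were below 0 and the median was 0.04, so that the direction of the list turned with the scaling. The list lay 0.19 below the median of all tested probe sets in both settings, a distance that scaling cannot change. The genes called were Lonp1, the matrix protease (-0.47 ± 0.108, SE, adjusted p = 0.0102), and Atf5, a transcription factor of the mitochondrial unfolded protein response (-0.43 ± 0.117, adjusted p = 0.0277), and both calls were lost with the signals as deposited (-0.16 and -0.11, adjusted p = 0.592 and 0.689). Clpx, the unfoldase subunit of the ClpXP protease, was the only gene of this list called in CL+CX against CL livers, with signals of 743, 836, 673, 826 and 814 in CL+CX livers, 1420, 2350, 1840, 1410 and 1240 in CL livers, and 1880, 2200, 1910, 2170 and 1890 in NC livers. The CL+CX livers lay below all others, at -1.05 against CL (adjusted p = 0.00447) and -1.37 against NC (adjusted p = 0.000202).

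In whole liver RNA, fewer cells of a type and less RNA per cell cannot be told apart, and the summed hepatocyte and macrophage signals given above moved between the same groups. Their part in the mitochondrial differences was not tested.

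Cirbp had lower means in both CL groups. Its signals were 144, 109, 82.4, 122 and 77.2 in CL+CX livers, 56.1, 175, 108, 103 and 102 in CL livers, and 142, 143, 176, 215 and 155 in NC livers. CL replicate 2 reached the NC range and CL replicate 1 lay lowest of all 15. The difference was -0.69 for CL minus NC (95% interval -1.22 to -0.16, adjusted p = 0.0869) and -0.66 for CL+CX minus NC (-1.19 to -0.13, adjusted p = 0.102), neither past the threshold, and 0.02 for CL+CX minus CL (-0.51 to 0.55). Without CL replicate 2 both passed, at -0.88 (adjusted p = 0.0157) and -0.66 (adjusted p = 0.0496).

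Other partners of the chaperones showed few calls. Of 21 tested HSF1-related and co-chaperone genes, 1 was lower in CL than in NC livers, against 6.76% of all genes. It was Bag5, a nucleotide exchange factor family member (-0.48, adjusted p = 0.028). It differed by -0.17 with the signals as deposited (adjusted p = 0.608). In CL+CX against NC livers 2 were lower, Bag5 (-0.48, adjusted p = 0.0334) and Cdc37, which brings kinases to Hsp90 (-0.38, adjusted p = 0.0258), neither of them called with the signals as deposited (adjusted p = 0.451 and 0.639), and 0 were called in CL+CX against CL livers by limma, where 3 had an unadjusted p under 0.05. The chaperonin TRiC and prefoldin list, which folds actin and tubulin, had 0 of 14 called in any comparison by limma. Of all genes 14.0%, 3.26% and 9.96% were called for CL minus NC, CL+CX minus CL and CL+CX minus NC. In the same order, 2, 0 and 3 of the list had an unadjusted p under 0.05.

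Of 28 genes of the ER unfolded protein response, Eif2ak3, the PERK kinase, was 0.56 higher in CL than in NC livers (adjusted p = 0.0297) and Sec63, a DnaJ-containing partner of the ER translocon, fell by 0.52 (adjusted p = 0.00515), though with the signals as deposited Sec63 differed by -0.20 (adjusted p = 0.467). Ddit3, the stress transcription factor CHOP, gave 56.4, 47.8, 55.9, 45.4 and 76.5 in CL+CX livers, 178, 155, 83.3, 128 and 72.2 in CL livers, and 115, 105, 80.9, 88.7 and 72.9 in NC livers. Only CL+CX replicate 5 reached into the CL range, and Ddit3 fell by 1.07 in CL+CX against CL livers (adjusted p = 0.0282). It was the only gene of the list called there, against 3.26% of all genes. Its call was lost without CL replicate 2 (adjusted p = 0.0512) and with the signals as deposited (adjusted p = 0.0824). Its within-diet deviations ranked 9th in likeness to Hspa1b, at r = 0.857, among the tested probe sets other than those of Hspa1a and Hspa1b.

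The chaperones of other sites, among them Dnajc5, a synaptic vesicle DnaJ protein, and Dnajc8, a spliceosome-associated one, had 0 of 14 probe sets called in any comparison by limma, with an unadjusted p under 0.05 for 1 in CL against NC, 0 in CL+CX against CL, and 1 for the difference of CL+CX from NC. Over all 129 member probe sets, an unadjusted p under 0.05 was found for 24 (18.6%, against 26.7% of all tested probe sets) in CL against NC. It was found for 25 (19.4%, against 19.7%) in CL+CX against CL, and for 41 (31.8%, against 26.6%) between CL+CX and NC. In CL+CX against NC livers, 47 of 60 cytosolic probe sets were below 0 with a median of -0.18, against a median of -0.03 over all. With the signals as deposited 26 of the 60 were below 0. The median lay 0.15 below that of all probe sets in both settings, a distance that scaling cannot change.

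**Figure D5:**
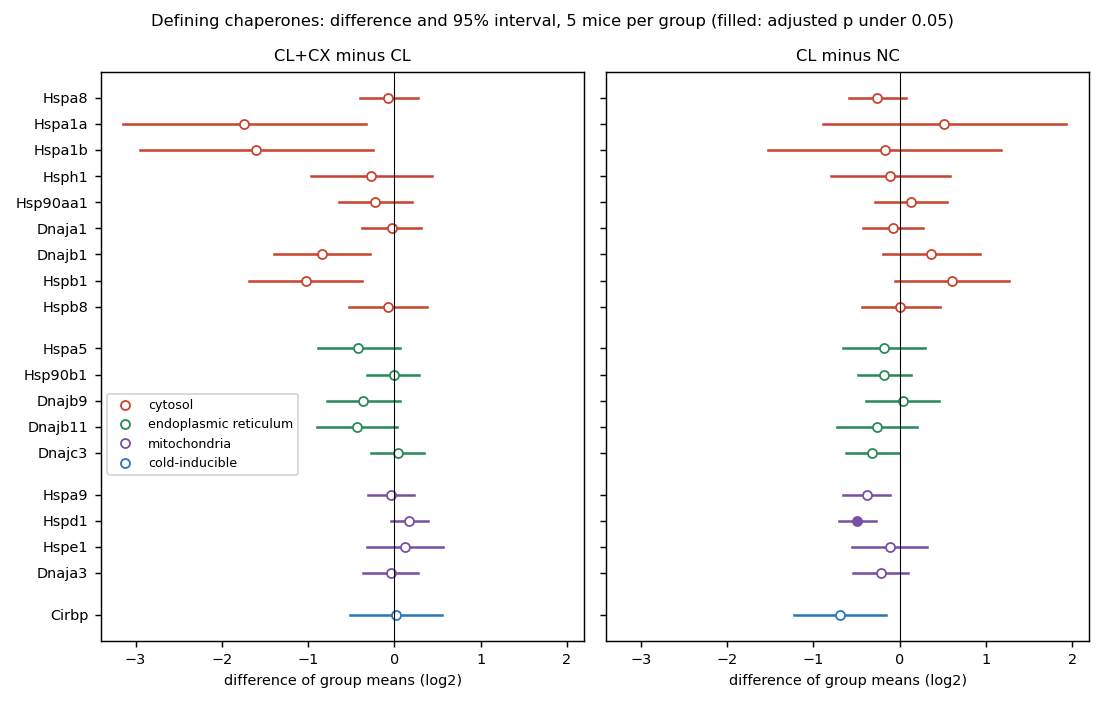
Difference of group means on the log2 scale with its 95% interval for 19 defining chaperones, each by its probe set of highest mean signal, for CL+CX minus CL and for CL minus NC, coloured by compartment and filled where the adjusted p is under 0.05. Hspd1 in CL minus NC (-0.49) is the only filled point, and the intervals of Hspa1a and Hspa1b are the widest.

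Other differences went with the CL+CX group. When the β-actin 3′ minus 5′ difference was added to the model as a covariate, 0 of the 129 members were called in CL+CX against CL livers by limma, as were 0.00492% of all tested probe sets, and 3 members in each of the other comparisons. Every CL+CX array lay above every CL array in this covariate. The fit cannot fully separate it from the diet there, so no conclusion is drawn from those lost calls. Of 15 tested clock and clock-output genes, 8 rose and 3 fell in CL+CX against CL livers, against 1.48% and 1.78% of all genes. Dbp led them with signals of 674, 575, 728, 592 and 616 in CL+CX livers, 37.9, 32.9, 31.8, 21.1 and 76.4 in CL livers, and 53.2, 36.5, 48.7, 76.1 and 50.3 in NC livers. The CL+CX livers stood far above all others for Dbp (4.12 higher than CL, adjusted p = 1.32e-06), and within diets its deviations gave r = -0.368 and rho = -0.196 with those of Hspa1b (permutation p = 0.253 and 0.537, adjusted 0.326 and 0.621). The part of the hour of sampling in the chaperone values was not tested.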

How the data were processed

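Total RNA of 15 snap-frozen mouse livers, 1 array a mouse, was measured on Affymetrix Mouse Genome 430 2.0 arrays. The authors summarised each probe set with the MAS5 algorithm, and the deposited values are linear signal intensities. The members and gene lists were chosen with earlier results of these data known.

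Signals were scaled to a common 75th percentile of 54.05, floored at 1 (11.29% of values) and taken to log2, and are given to 3 significant digits. Of 45101 probe sets, 64 controls were left out, and the 20342 at or above the array median on all 5 arrays of a group were tested. The 3 groups entered a limma 3.58.1 model (R 4.3.3) with Benjamini-Hochberg adjustment over all tested probe sets, and an adjusted p under 0.05 was called. The tested probe set of highest mean signal stood for a gene. On simulated data with the 20342 probe sets, 2-fold changes were recovered in 72% of cases for CL minus NC and 77% for CL+CX minus CL. Of the simulated calls 7.69% and 2.84% were false. These are averages over randomly chosen probe sets with independent noise, and they do not give the power for genes as variable as Hspa1a and Hspa1b. Named were the defining chaperones of each compartment whatever their values, and every called member. Alternatives were other filters, scalings, offsets, tests and covariates, a block for the replicate number, and leaving out each mouse. Promoter sequences were RefSeq's of build GRCm38.p6. The number of arrays limits the precision.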

Additional observations from a re-analysis of the deposited data

Results flagged for a closer look

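Of 102 groups of 5 mice, over 34 named probe sets, 5 held a mouse set apart from the rest. Its gap to the next, divided by the group's range, both on the log2 scale, exceeded Dixon's 95% value of 0.71. Chance alone is set to give about 1 in 20. The signals below are not in log2. Hspa1b was highest in CL+CX replicate 5, at 868 against 240 for the next liver (ratio 0.717). Hsp90b1, on probe set 1415889_a_at, was highest in the same CL+CX replicate 5, at 2320 against 1820 (ratio 0.767). Hspa8 was highest in CL replicate 2, at 5130 against 3380 (ratio 0.801). Dnajb4, on probe set 1431734_a_at, was lowest in NC replicate 4, at 104 against 163 (ratio 0.82). Hspa14 was lowest in NC replicate 1, at 56.5 against 74.8 (ratio 0.799).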

How the results depend on the processing

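The number of members called depended on the processing, and the cause was not tested except where fewer probe sets or mice entered the fit. For CL against NC, with 7 members called, the count was 3 with no filter on low values (2.5%), 11 with the stricter filter (19.6%), 3 with quantile normalization (11.6%), 2 with only these groups in the fit (8.35%) and 3 with the β-actin covariate (5.6%), where the percentages are the share of all tested probe sets called in the same fit (12.2% with 7 called). Leaving out a mouse gave 3 to 15, with 15 without CL replicate 2 (18.9%), 3 without NC replicate 2 (8.93%), and 4 without NC replicate 1, 3 or 5 or CL replicate 1 or 4 (8.45% to 9.36%). With the signals as deposited 7 were called, but all 7 higher, and the share of higher calls over all probe sets was 96.2%, against 48.2% after scaling and 55.4% after quantile normalization. For CL+CX against CL, 4 were called (3.13%), and 0 when no filter was applied (0.0844%), 0 with the signals as deposited (0.398%, with 28.4% of all calls higher, against 50.5%), 7 with the offset (4.89%), 0 with only these groups (0.698%) and 0 with the covariate (0.00492%). Leaving out a mouse gave 0 to 10, with 10 without CL replicate 5 (4.76%), 0 without CL replicate 1 or 3 or CL+CX replicate 2 or 3 (0.521% to 1.47%), 1 without CL replicate 2 (2.49%) or CL+CX replicate 4 (0.796%), and 2 without NC replicate 5 (2.26%) or CL+CX replicate 5 (2%). For CL+CX against NC, 9 were called (9.79%), and 3 when no filter was applied (1.34%), 17 with the stricter filter (18.7%), 16 with the offset (11.6%), 19 with only these groups (15.7%) and 3 with the covariate (3.26%), and 90.3% of all calls were higher as deposited, against 49.1%. Leaving out a mouse gave 5 to 17, with 17 without CL replicate 2 (15%) and 5 without NC replicate 3 (7.17%) or CL+CX replicate 1 (7.5%).

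The scalings and the fit without CL replicate 2 were applied to the partner genes as alternatives chosen after seeing the data. Replicate numbers did not pair the samples (correlation of same-numbered mice -0.132 to 0.135), and with the number as a block the counts were 4, 2 and 6. None of 497 recalculated values of called members changed sign, and 94 of 1439 of named members that were not called did. Signals near the array medians of 9.48 to 16.7 limit the dim probe sets.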
